A study of Mus musculus with 4 samples.

Results

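Lymphatic endothelial cells line the vessels that return fluid, proteins and immune cells from the heart wall to the blood. The transcription factor Prox1 sets and keeps their identity. Growth of the vessels depends on the receptor Flt4 (VEGFR3) and its ligands Vegfc and Vegfd, and on Ccbe1 and Adamts3, which together turn the Vegfc precursor into its active form. The cells also secrete the chemokine Ccl21a, which guides dendritic cells and lymphocytes into the vessel. Here 375 lymphatic endothelial nuclei were described among 20609 mouse heart nuclei that passed limits on depth and mitochondrial RNA, out of 41706 barcodes.

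The nuclei came from 4 single-nucleus RNA libraries prepared with BD Rhapsody chemistry, which gives the RNA of each nucleus a shared barcode and each molecule its own identifier (UMI). The 2 cKO libraries were titled PKP2fl/fl MCM cre/+: both Pkp2 alleles are flanked by loxP sites, and MCM is a Cre recombinase that tamoxifen switches on. The 2 control libraries were titled MCM cre/+, while their genotype tag reads wt. Pkp2 encodes plakophilin 2, a desmosomal protein, and the series concerns early arrhythmogenic cardiomyopathy after its loss from cardiomyocytes. All mice were given tamoxifen, were 8 weeks old and had the whole heart taken 2 weeks after the injection. Each library was a pool of the hearts of 2 mice, a male and a female, so the library is the replicate (n = 2 per group) and mouse and sex cannot be told apart within it. Before capture the nuclei, freed from frozen tissue, carried a Nup62 antibody tag and went through a sorter, which can set the share of a class. The samples are tagged as cardiomyocyte, yet nuclei of many classes were present.

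Members were chosen by their UMI counts. A nucleus was counted as lymphatic when it held at least 3 UMIs from at least 2 of the 8 genes Prox1, Mmrn1, Reln, Flt4, Ccl21a, Pard6g, Tbx1 and Sema3a, with at least 1 of Prox1, Mmrn1 or Reln. It also needed at least 500 UMIs, at most 5% of UMIs from mitochondrial genes, under 3% from 7 cardiomyocyte genes, and no UMI of the macrophage gene Csf1r or the fibroblast gene Pdgfra. The rule is a set of thresholds on measured values, so the levels of those genes are given as a description and were not tested. Of the 375 nuclei, 80 and 183 came from cKO 1 and cKO 2, and 27 and 85 from control 1 and control 2. Summed over these nuclei, the libraries held 167006 and 484270 UMIs in the cKO group, against 43484 and 170664 UMIs in the control group. The median nucleus held 1750 and 2312 UMIs in the cKO libraries and 1413 and 1609 UMIs in the control libraries, so control 1 gives the least precise values. Levels are given as CPM, the UMIs of a gene in the summed nuclei of a library scaled to a common total with TMM factors, and pairs of values are given in the order replicate 1, replicate 2. In lymphatic nuclei of control 1, 1 UMI gives 22.6 CPM and 3 UMIs give 67.7 CPM. A count of 0 there still allows up to 67.7 CPM, so differences from control 1 values near these levels rest on few UMIs.

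Most nuclei lay well inside the threshold. All 8 genes were seen in 21 nuclei, 7 in 68, 6 in 98, 5 in 76, 4 in 48, 3 in 41 and 2 in 23. The median nucleus held 16.5 and 22 UMIs of the 8 genes in the cKO libraries and 12 and 15 in the control libraries, and the deeper libraries had the higher medians within each group. Just inside the rule, 27 nuclei held exactly 3 such UMIs, and just outside it 61 nuclei held exactly 2 from 2 genes. At the cardiomyocyte limit, 13 nuclei had 2% to under 3% of UMIs from the 7 genes and were kept, while 26 with 3% to under 4% were left out. The mitochondrial limit mattered most: 628 nuclei met every other criterion but had over 5% mitochondrial UMIs. The libraries shared at most 2 barcodes in any pair among all 41706.

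Among the genes of the rule, Reln, which encodes the secreted glycoprotein reelin, was at 1347 and 1958 CPM in the cKO libraries, against 1625 and 2415 CPM in the control libraries. Mmrn1, a multimerin first known from platelets and endothelium, was at 1638 and 1493 CPM in cKO and 1670 and 1805 CPM in control nuclei. Prox1 was at 673 and 737 CPM in cKO and at 384 and 862 CPM in control nuclei. The groups overlapped for Reln and Prox1, and both cKO values of Mmrn1 were the lower ones. Flt4 was at 1450 and 1323 CPM in cKO, against 1738 and 1500 CPM in control nuclei, and at 70.7 to 123 CPM in blood endothelial nuclei. Ccl21a ran the other way, with 3209 and 2213 CPM in cKO and 1625 and 1395 CPM in control nuclei, and 9.23 to 18.5 CPM in blood endothelial nuclei. The mouse genome holds near-identical copies of this chemokine, so the split of reads among them is uncertain; Ccl21b had no UMI in these nuclei and Ccl21d had 1. Sema3a, a repulsive guidance ligand, was low in control 1: it was at 783 and 1142 CPM in cKO nuclei and 181 and 815 CPM in control nuclei. Tbx1, a T-box transcription factor, was high there, at 133 and 133 CPM in cKO and 406 and 152 CPM in control nuclei.

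Genes that the rule did not use also marked these nuclei as lymphatic. The comparison was with 4251 blood endothelial nuclei, gated on pan-endothelial and capillary genes and on the absence of Prox1, Mmrn1 and Reln, so the contrast between the classes is partly built in and is described without a test. Lyve1, the hyaluronan receptor of lymphatic endothelium, which resident macrophages also carry, was at 928 and 615 CPM in cKO and 497 and 744 CPM in control lymphatic nuclei. In blood endothelial nuclei it was at 15.2 and 20.4 CPM in cKO and 50.1 and 30.3 CPM in control, a ratio of 24.0 between the mean levels of the classes. Podoplanin (Pdpn), a membrane mucin of lymphatic endothelium, was at 176 and 185 CPM in cKO and 113 and 170 CPM in control lymphatic nuclei, 31.3 times the mean of blood endothelial nuclei. The class ratio was 21.5 for the transcription factor Maf, 32.3 for Thy1, 15.9 for the metalloprotease Tll1 and 30.1 for the secreted fibrinogen-like protein Fgl2. It was smaller for genes that veins share: 4.0 for Nr2f2, which encodes the venous factor COUP-TFII, 3.5 for the scavenger receptor Stab1 and 1.93 for Nrp2, a co-receptor of Flt4. Sox18, a factor upstream of Prox1 in the embryo, did not follow, at a ratio of 0.73.

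Shares of nuclei with a UMI gave the same picture at equal depth. After each nucleus was thinned to 1000 UMIs, Lyve1 was seen in 44.1% and 37.6% of cKO and 27.3% and 38.5% of control lymphatic nuclei. In blood endothelial nuclei, where any UMI may be free RNA, it was seen in 1.67% and 1.36% of cKO and 4.79% and 2.16% of control nuclei. Unthinned, the lymphatic shares were 55.0% and 52.5% in cKO and 40.7% and 52.9% in control libraries, at the median depths above. The thinning left out 12 and 5 cKO and 5 and 7 control lymphatic nuclei that were shallower. In the thinned nuclei without a Lyve1 UMI, genes outside the rule were still present: Nrp2 was at 1026 and 1342 CPM in cKO and 625 and 1063 CPM in control libraries, and Stab1 at 816 and 685 CPM in cKO and 1000 and 688 CPM in control libraries. Nuclei with a Lyve1 UMI had higher levels of most lymphatic genes compared, in both cKO libraries and in control 2. Pdpn, for example, was at 367 CPM beside 105 CPM for cKO 1, 179 CPM beside 126 CPM for cKO 2 and 400.0 CPM beside 146 CPM for control 2. Ccl21a, Mmrn1, Reln, Flt4, Nrp2 and Stab1 had the same order in those 3 libraries, while Flt1 was lower in the nuclei with Lyve1, though close in control 2 (133 beside 146 CPM). Other genes had exceptions. Prox1 was lower with Lyve1 in cKO 1 (733 beside 947 CPM), Itga9 was lower in control 2 (933 beside 1167 CPM), and Cp was slightly lower in both of these libraries. Control 1 held only 6 nuclei with and 16 without Lyve1 after thinning, and Ccl21a, Flt4 and Flt1 had the opposite order there. Prox1 and Cp were also lower with Lyve1 in control 1.

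**Figure D1:**
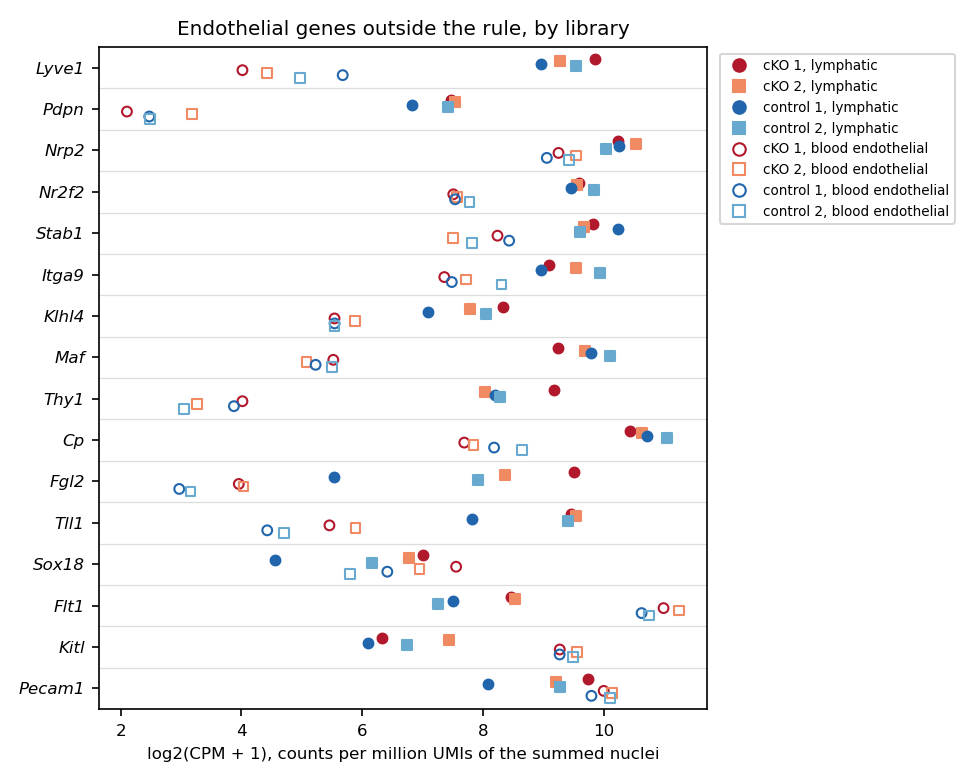
Levels of 16 endothelial genes outside the rule, as log2(CPM + 1) of the summed nuclei of each library, in lymphatic (filled) and blood endothelial (open) nuclei; cKO libraries in red and orange, control libraries in blue. From Lyve1 down to Tll1 the lymphatic points lie right of the blood endothelial points, while Flt1, Kitl and Pecam1 lie left of them.

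The highest ratios to blood endothelial nuclei mostly belonged to genes outside the marker lists. By the ratio of mean CPM, lymphatic over blood endothelial, among genes with at least 20 counts and outside the rule, the highest 15 were 1810008I18Rik, Duox2, Tc2n, Stab2, Susd4, Lrrn4cl, Dtx1, Ptprv, D330037F02Rik, Pld5, Htr2b, Car10, Nrcam, Apba2 and A830019P07Rik, with ratios of 180 down to 56.1. Duox2, an oxidase that makes hydrogen peroxide, had a ratio of 176, and Htr2b, a serotonin receptor, one of 61.9. Dtx1, a ubiquitin ligase of the Notch pathway, had a ratio of 83.2. Stab2, a hyaluronan scavenger receptor, was uneven between replicates, at 12.1 and 135 CPM in cKO and 226 and 35.2 CPM in control nuclei. At the other end, Flt1 (VEGFR1) was at 263 CPM on average in lymphatic and 1937 CPM in blood endothelial nuclei, and Kitl was at 106 and 675 CPM. Several genes of sinus or collecting lymphatics in lymph nodes were close to nothing: Marco and Scnn1b had no UMI, and Ackr4 was seen in 4 nuclei.

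The targeted gene was near the same level in both groups of lymphatic nuclei, with a wide error. Pkp2 was at 91.0 and 51.9 CPM in cKO and 67.7 and 64.5 CPM in control nuclei (log2 fold change 0.01, SE 0.60, edgeR adjusted p = 0.999). These levels came from 15 and 25 UMIs in cKO and 3 and 11 UMIs in control nuclei. In cardiomyocyte nuclei it was at 619 and 590 CPM in cKO and 562 and 549 CPM in control (0.12, edgeR adjusted p = 0.835), so these counts do not show the deletion. A count over the whole gene also takes reads from exons that were not deleted, so it does not check the deletion. The background of higher calls in cardiomyocyte nuclei was 0.947%. Esr1, whose hormone-binding part is fused to the MCM Cre, was at 3738 and 3840 CPM in cKO cardiomyocyte nuclei, against 65.6 and 71.2 CPM in control ones (5.79, edgeR adjusted p = 1.44e-09). That level in the libraries labelled control goes with their wt tag and not with their title, so Pkp2 loss and Cre expression cannot be told apart between the groups. In lymphatic nuclei Esr1 was at 261 and 176 CPM in cKO and 67.7 and 111 CPM in control, which did not pass (1.09, SE 0.44, edgeR adjusted p = 0.958).

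The lymphatic share of all nuclei was higher in the cKO hearts. It was 2.05% (95% Clopper-Pearson interval 1.63 to 2.55) and 2.51% (2.16 to 2.89) in the cKO libraries, against 0.901% (0.595 to 1.31) and 1.32% (1.06 to 1.63) in the control libraries. The means were 2.28% ± 0.321 in cKO and 1.11% ± 0.298 in control (SD, n = 2 libraries each), and the intervals cover counting error only. The edgeR quasi-likelihood test on the numbers of nuclei per class gave a log2 ratio of 1.00 (SE 0.29, adjusted p = 0.00891), while the two-sided exact permutation test over the 4 libraries gave p = 0.33, the smallest it can give. The call rests on 2 of the libraries: the edgeR log2 ratio was 0.83 (adjusted p = 0.0885) without cKO 2 and 0.79 (adjusted p = 0.169) without control 1. Thinned to 1000 UMIs, it was 0.89 (edgeR adjusted p = 0.0806).

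The size of the difference depended on what the nuclei were counted against. The nuclei past the limits numbered 3894 and 7294 in cKO and 2996 and 6425 in control libraries. Of these the cardiomyocyte gate held 354 and 365 in cKO and 576 and 914 in control. The blood endothelial gate held 924 and 2022 in cKO and 340 and 965 in control, so its share was also higher in cKO. Among nuclei under the 3% cardiomyocyte limit, lymphatic nuclei made up 3.22% and 3.40% in cKO and 2.04% and 2.44% in control libraries, a log2 ratio of 0.52 (edgeR adjusted p = 0.00294). Thinned to 1000 UMIs, these shares were 3.18% and 2.98% in cKO and 2.60% and 2.52% in control libraries, a difference in mean log2 share of 0.27, beside 0.57 unthinned. Per 100 blood endothelial nuclei there were 8.66 and 9.05 lymphatic nuclei in cKO and 7.94 and 8.81 in control libraries. That log2 ratio was 0.08 (SE 0.08), the means of the groups differed by less than the 2 control libraries did, and the exact permutation test gave p = 0.667. Thinned to 1000 UMIs, the order turned round, with 8.6 and 7.57 in cKO and 11 and 9.27 in control libraries (log2 ratio -0.32, exact permutation p = 0.33). With nuclei up to 20% mitochondrial UMIs, there were 10.9 and 9.27 in cKO and 7.65 and 8.20 in control libraries (0.34, exact permutation p = 0.33).

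**Figure D2:**
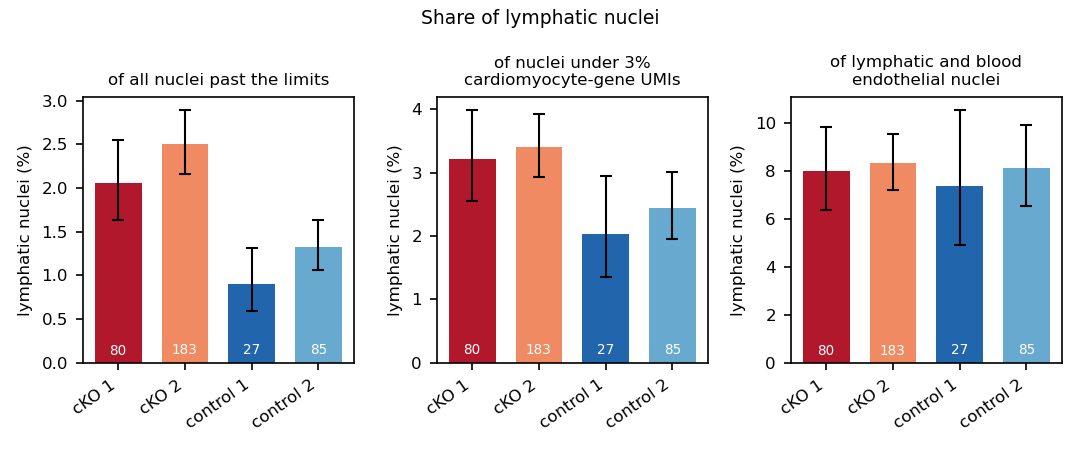
Lymphatic nuclei in each library as a percentage of all nuclei past the limits, of nuclei under the cardiomyocyte limit, and of lymphatic plus blood endothelial nuclei; bars start at 0, whiskers are 95% Clopper-Pearson intervals and the number in each bar is the count of lymphatic nuclei. The cKO bars are higher in the first and second panels and level with the control bars in the third.

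No gene of the lymphatic nuclei passed the test between the groups. Of 4203 genes tested with edgeR, 0 had an adjusted p under 0.05 (0% higher and 0% lower in cKO), and 195, or 4.64%, had an unadjusted p under 0.05. DESeq2 also called 0, with 52 at an unadjusted p under 0.05. Leaving out 1 library leaves 1 library alone in its group, so those gene fits of lymphatic nuclei are given by effect size only. Across them the log2 fold change of Dach1 ran from 2.64 to 8.09, that of Nts from 3.95 to 7.68 and that of Serpina3n from 3.34 to 7.86. Fgl2 ran from 0.92 to 3.56, Col1a1 from 1.33 to 2.76 and Etl4 from -1.59 to -0.44. A830019P07Rik ran from -2.49 to -1.43 and Gm49767 from -1.96 to -0.61. Selp was at 8.89 without cKO 1 and 8.36 without control 1, although 100 of its 122 UMIs in cKO 2 stood in 3 nuclei. Vcam1 was at 2.64 without cKO 1. Both cKO libraries lay above both control libraries for 18.4% of tested genes and below them for 16.4%. For comparison, edgeR called 263 genes higher (2.28% of 11557) and 153 lower (1.32%) in fibroblast nuclei, and 1 gene, a lower one (0.00836% of 11960), in blood endothelial nuclei, which have far more nuclei than the lymphatic class. Fits of blood endothelial nuclei with 1 library left out have the same limit, and their calls are not given.

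The 5 genes with the smallest p in each direction are given as values, since none passed. Nts, the precursor of neurotensin and a peptide gene of lymphatic endothelium, was at 164 and 76.8 CPM in cKO, against 0 and 5.86 CPM in control nuclei. It lies at chr10:102481756-102490486 on the minus strand of GRCm38. In cKO libraries 64 UMIs of it stood in 13 and 23 nuclei, while the control libraries had 1 UMI in 1 nucleus, a pooled ratio of 21 with a counting interval of 3.64 to 844 (edgeR adjusted p = 0.191). The intervals of pooled ratios here and below treat each UMI as independent. They leave out variation between libraries and between nuclei, so they are no test of the groups. A count of 0 in control 1 allows up to 67.7 CPM, so that library bounds Nts only loosely. In the other classes Nts was at most 15.4 CPM. Serpina3n, a secreted protease inhibitor that inflammation induces, was at 170 and 95.5 CPM in cKO and 0 and 11.7 CPM in control nuclei, with 74 and 2 UMIs and a pooled ratio of 12.2 (3.25 to 102, edgeR adjusted p = 0.191). In fibroblast nuclei the same gene rose, to 150 and 132 CPM in cKO, against 30.8 and 17 CPM in control (log2 fold change 2.73, edgeR adjusted p = 3.97e-05).

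Igfbp7, a secreted protein that binds insulin-like growth factors, was at 516 and 502 CPM in cKO and 181 and 193 CPM in control nuclei (log2 fold change 1.42, SE 0.35, edgeR adjusted p = 0.379). Its groups did not overlap, but the control 1 value came from 8 UMIs in 5 nuclei, so the small spread of 2 libraries understates its error. Fibroblast and blood endothelial nuclei had higher values in cKO as well. In macrophage and cardiomyocyte nuclei the groups overlapped (log2 fold changes 0.57 and -0.13). In fibroblast nuclei it was at 2049 and 1806 CPM in cKO and 776 and 736 CPM in control (1.35, edgeR adjusted p = 0.00243; 1.31 and 0.0672 without control 2). In blood endothelial nuclei it was at 1293 and 1213 CPM in cKO and 586 and 535 CPM in control (1.16, edgeR adjusted p = 0.0565). The test of the difference between the lymphatic and the blood endothelial effect gave 0.25 (SE 0.28, edgeR adjusted p = 1.00).

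Dach1, a transcriptional cofactor, was at 91.0 and 185 CPM in cKO and 0 and 17.6 CPM in control nuclei, with 104 and 3 UMIs and a pooled ratio of 11.4 (3.79 to 56.2, edgeR adjusted p = 0.191). Ccdc85a was at 146 and 125 CPM in cKO and 22.6 and 23.4 CPM in control nuclei (edgeR adjusted p = 0.379). Both genes are much higher in blood endothelial nuclei, at 523 and 722 CPM on average, and they stood in particular lymphatic nuclei. In the lymphatic nuclei that also held at least 3 UMIs of Flt1, Emcn, Btnl9 and Rgcc (21 and 75 in cKO, 4 and 25 in control), Dach1 was at 218 and 338 CPM in cKO and 0 and 16.3 CPM in control. In the other lymphatic nuclei it was at 18.6 and 29.0 CPM in cKO and 0 and 18.3 CPM in control. Ccdc85a was at 351 and 227 CPM in the cKO nuclei with blood endothelial UMIs and at 28.0 and 20.7 CPM in the other cKO nuclei. Nts and Serpina3n were not confined to them. Serpina3n was at 151 and 65.9 CPM in the cKO nuclei with blood endothelial UMIs and 177 and 124 CPM in the other cKO nuclei. Nts was at 301 and 74.2 CPM in the former and 83.9 and 78.6 CPM in the latter, so in cKO 1 it was higher in nuclei with blood endothelial UMIs. In that library 15 of its 27 UMIs stood in 3 nuclei.

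The 5 genes with the smallest p among those lower in cKO nuclei were Etl4, Gucy1a2, A830019P07Rik, Gm49767 and ENSMUSG00000121382. Etl4 (chr2:19909780-20810713, plus strand, GRCm38) was at 770 and 1005 CPM in cKO, against 1287 and 2678 CPM in control nuclei (log2 fold change -1.19, SE 0.31, edgeR adjusted p = 0.424). Without control 2 its fold change was -0.44 and that of Gm49767 was -0.61. Gucy1a2, a subunit of the soluble guanylate cyclase that nitric oxide activates, was at 212 and 247 CPM in cKO and 429 and 557 CPM in control nuclei (-1.13, edgeR adjusted p = 0.595). The lincRNA A830019P07Rik was at 30.3 and 56.1 CPM in cKO and 135 and 188 CPM in control, and it is also 1 of the 15 genes with the highest ratio to blood endothelial nuclei. The lincRNA Gm49767 was at 54.6 and 56.1 CPM in cKO and 90.3 and 217 CPM in control nuclei. ENSMUSG00000121382, for which the annotation used here has no entry, was at 218 and 152 CPM in cKO and 632 and 328 CPM in control nuclei.

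A second set of nuclei, chosen after the data were seen, showed which of these 10 patterns held outside the rule. It held 530 nuclei that met the rule except for having over 5% to 20% mitochondrial UMIs, 162 and 183 in cKO and 58 and 127 in control. They come from the same 4 libraries, so they are other nuclei of the same hearts and no new replicates. Of 6584 genes tested in them, edgeR called 1 higher (0.0152%) and 0 lower (0%), with 366 at an unadjusted p under 0.05. The gene that rose was Ccn2, which encodes connective tissue growth factor, at 482 and 447 CPM in cKO, against 87.9 and 80.3 CPM in control nuclei (log2 fold change 2.48, SE 0.32, edgeR adjusted p = 0.0276). Within the rule Ccn2 was at 212 and 74.7 CPM in cKO and 67.7 and 87.9 CPM in control nuclei, with overlapping groups.

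Nts was at 172 and 123 CPM in cKO and 19.5 and 21.9 CPM in control nuclei of the second set (log2 fold change 2.76, SE 0.46, edgeR adjusted p = 0.114). Serpina3n was at 84.6 and 71.2 CPM in cKO and 39.1 and 21.9 CPM in control (1.5, edgeR adjusted p = 0.622). Etl4 was at 456 and 722 CPM in cKO and 1143 and 1847 CPM in control, and Gucy1a2 at 71.7 and 156 CPM in cKO and 303 and 365 CPM in control. A830019P07Rik, Gm49767 and ENSMUSG00000121382 were again lower in both cKO libraries than in either control library. In that set the groups did not overlap for 18.5% of genes in the higher and 16.4% in the lower direction. Igfbp7 was at 794 and 378 CPM in cKO and 391 and 237 CPM in control nuclei, so its groups overlapped. Dach1, at 51.2 and 107 CPM in cKO and 97.7 and 87.6 CPM in control, and Ccdc85a, at 51.2 and 125 CPM in cKO and 117 and 230 CPM in control, did not keep their direction.

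Nrg1, the neuregulin that signals from endocardium and endothelium to ErbB receptors of cardiomyocytes, was at 692 and 720 CPM in cKO and 29.3 and 161 CPM in control nuclei of the second set (log2 fold change 2.64, edgeR adjusted p = 0.114). With both sets pooled, 905 nuclei and 8420 genes tested, edgeR called 3 genes, all higher: Nrg1 (2.46, adjusted p = 0.0157), Nts (3.08, adjusted p = 0.0254) and Ccn2 (1.97, adjusted p = 0.0381). Nrg1, Ccn2 and the second set were singled out after their values were seen. The summed level of 9 endocardial markers in the second set, before TMM scaling, was 3242 and 3006 CPM in cKO and 1823 and 2294 CPM in control. Nrg1 is 1 of the 9 and gave 696 and 723 CPM of it in cKO and 29.2 and 159 CPM in control. The sum is therefore no measure apart from Nrg1. Within the rule that sum was at 1527 and 1782 CPM in cKO and 1794 and 1518 CPM in control nuclei, also before TMM scaling. With TMM scaling, Nrg1 within the rule was at 121 and 158 CPM in cKO and 67.7 and 29.3 CPM in control. The part of endocardial RNA in the Nrg1 values was not tested.

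**Figure D3:**
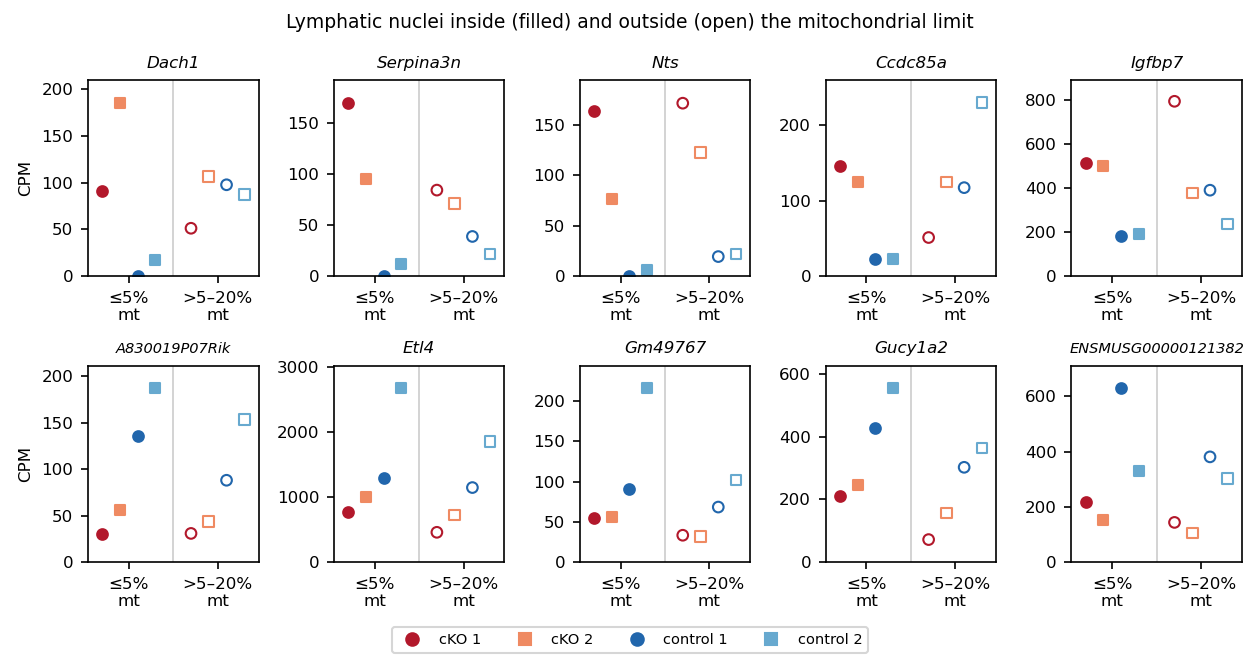
CPM in each library of the 5 genes with the smallest p among those higher (top row) and lower (bottom row) in cKO, in the lymphatic nuclei of the rule (filled, at most 5% mitochondrial UMIs) and in the nuclei that miss only that limit (open, over 5% to 20%); cKO libraries stand left of control libraries. Nts, Serpina3n and the 5 genes of the bottom row keep the order of the groups in both sets, and Dach1 and Ccdc85a do not.

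Markers of blood endothelium moved with the group within the rule. The summed level of 16 blood endothelial markers was 7850 and 6432 CPM in cKO and 4718 and 5585 CPM in control lymphatic nuclei, with none of the 16 at 0, against 15540 and 15679 CPM in cKO and 12118 and 12464 CPM in control blood endothelial nuclei. Of its 15 tested members 14 had a fold change above 0, where 51.3% of all tested genes did. Flt1 was at 352 and 367 CPM in cKO and 181 and 152 CPM in control lymphatic nuclei (log2 fold change 1.16, edgeR adjusted p = 0.744), and in the second set its fold change was -0.19. The sum of the 16 markers was still higher in cKO in the second set, at 7818 and 7030 CPM in cKO and 6813 and 6344 CPM in control nuclei, before TMM scaling. The sum of 15 macrophage markers ran the other way, at 334 and 558 CPM in cKO and 1151 and 651 CPM in control nuclei. Fibroblast markers, 14 genes, summed to 1686 and 1574 CPM in cKO and 2957 and 1119 CPM in control nuclei, so control 1 held the most. The 14 cardiomyocyte markers did not separate the groups, at 4095 and 3187 CPM in cKO and 3228 and 3493 CPM in control. Of 15 lymphocyte markers 6 were at 0, among them Cd3e and Cd79a. The part of these cells in the values below was not tested.

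Among gene lists with at least 10 tested members, the matrix list had the highest median. The list of matrix and basement membrane genes had 33 of 41 members tested, of which none passed, 15 did not overlap in the higher and 2 in the lower direction, and 29 had a fold change above 0. Of all tested genes, 18.4% did not overlap in the higher and 16.4% in the lower direction, and 51.3% had a fold change above 0. The median log2 fold change was 0.60, beside 0.02 over all tested genes, and it was 0.59 in the second set. Mmp14, a membrane-bound metalloproteinase, was at 231 and 141 CPM in cKO and 45.1 and 64.5 CPM in control nuclei (1.57, edgeR adjusted p = 0.744). Col1a1, a collagen that fibroblasts make in far larger amounts, was at 212 and 127 CPM in cKO and 67.7 and 23.4 CPM in control nuclei (2.24, edgeR adjusted p = 0.424). The protease Adamts1 was at 176 and 83.0 CPM in cKO and 22.6 and 29.3 CPM in control nuclei, and fibronectin (Fn1) at 188 and 91.3 CPM in cKO and 67.7 and 41.0 CPM in control. The basement membrane collagen Col4a1 was at 655 and 588 CPM in cKO and 429 and 387 CPM in control nuclei. The laminin chain Lama2 went the other way, at 364 and 367 CPM in cKO and 745 and 527 CPM in control nuclei (-0.74, edgeR adjusted p = 0.982). Lama4 and Timp3, the members with the highest levels together with Lama2 and Col4a1, had fold changes of 0.01 and 0.11. In the second set Mmp14 was again higher, at 169 and 196 CPM in cKO and 87.9 and 84.0 CPM in control, while the groups overlapped for Col1a1 and Adamts1.

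Genes of lymphatic identity were present in both groups. Of 33 identity genes outside the rule 22 were tested and none passed. Of the 22, 6 did not overlap in the higher and 2 in the lower direction, beside 18.4% and 16.4% of all tested genes. The median log2 fold change was 0.24 (-0.03 without cKO 1). Lyve1 had a fold change of 0.23 (SE 0.32), Pdpn 0.24 (SE 0.40) and Nrp2 0.27 (SE 0.28). Fgl2 was the member with the smallest p, at 728 and 330 CPM in cKO and 45.1 and 240 CPM in control nuclei (1.49, SE 0.45, edgeR adjusted p = 0.715). Ackr2, the decoy receptor of lymphatic endothelium for inflammatory chemokines, was at 97.1 and 106 CPM in cKO and 67.7 and 29.3 CPM in control nuclei (1.40, edgeR adjusted p = 0.975). Maf was at 601 and 820 CPM in cKO and 880 and 1102 CPM in control nuclei, and the ferroxidase Cp at 1383 and 1590 CPM in cKO and 1670 and 2116 CPM in control.

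The receptor side of the VEGF-C pathway was present in both groups without a called difference. Its list had 16 of 24 members tested, with 5 not overlapping in the higher and 0 in the lower direction, beside 18.4% and 16.4% of all tested genes. The median of the list was 0.25. The integrin chains that help Flt4 signal gave 0.91 for Itgb1, at 394 and 382 CPM in cKO and 181 and 217 CPM in control nuclei (edgeR adjusted p = 0.958), and -0.27 for Itga9. Kdr (VEGFR2), at 601 and 558 CPM in cKO and 429 and 498 CPM in control nuclei, had a fold change of 0.29, and the adrenomedullin receptor Calcrl one of -0.13. In the angiopoietin list, where 4 of 9 genes were tested, Tie1 was at -0.05 and Tek at 0.39.

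Among the ligand-side genes Ccbe1 was called, in classes outside the lymphatic nuclei. In fibroblast nuclei, the class with the most of it, Ccbe1 fell to 112 and 174 CPM in cKO, against 337 and 473 CPM in control (log2 fold change -1.49, SE 0.26, edgeR adjusted p = 0.00226). In cardiomyocyte nuclei it fell to 94.3 and 97.9 CPM in cKO, against 191 and 178 CPM in control (-0.94, SE 0.17, edgeR adjusted p = 0.0117). The background of lower calls was 1.32% in fibroblast and 1.39% in cardiomyocyte nuclei. In blood endothelial nuclei Ccbe1 was at 31.0 and 35.3 CPM in cKO and 54.7 and 71.9 CPM in control, which did not pass (-0.97, edgeR adjusted p = 0.199). Macrophage nuclei had the same order without a call, at 23.8 and 35.5 CPM in cKO and 51.8 and 46.7 CPM in control (-0.64, edgeR adjusted p = 0.517). In lymphatic nuclei it had too few counts for the test, with levels of 24.3 and 33.2 CPM in cKO and 22.6 and 64.5 CPM in control.

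The other ligand genes did not pass in any class in which they could be tested. Vegfc was highest in blood endothelial nuclei, at 114 and 210 CPM in cKO and 95.7 and 178 CPM in control (0.20, edgeR adjusted p = 0.909), where replicate 2 was the higher library in both groups. Vegfd was at 47.6 and 48.3 CPM in cKO and 49.3 and 47.4 CPM in control fibroblast nuclei. In lymphatic nuclei Vegfd had too few counts for the test, with 3 and 15 UMIs in cKO and 5 and 8 UMIs in control. Its levels there were 18.2 and 31.1 CPM in cKO and 113 and 46.9 CPM in control nuclei. Adamts3, the protease that cuts the Vegfc precursor, was at 60.9 and 70.4 CPM in cKO and 30.8 and 53.8 CPM in control fibroblast nuclei (0.54, edgeR adjusted p = 0.463). Svep1, a matrix protein that lymphatic development requires, was at 515 and 610 CPM in cKO and 269 and 354 CPM in control fibroblast nuclei (0.84, edgeR adjusted p = 0.0594).

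**Figure D4:**
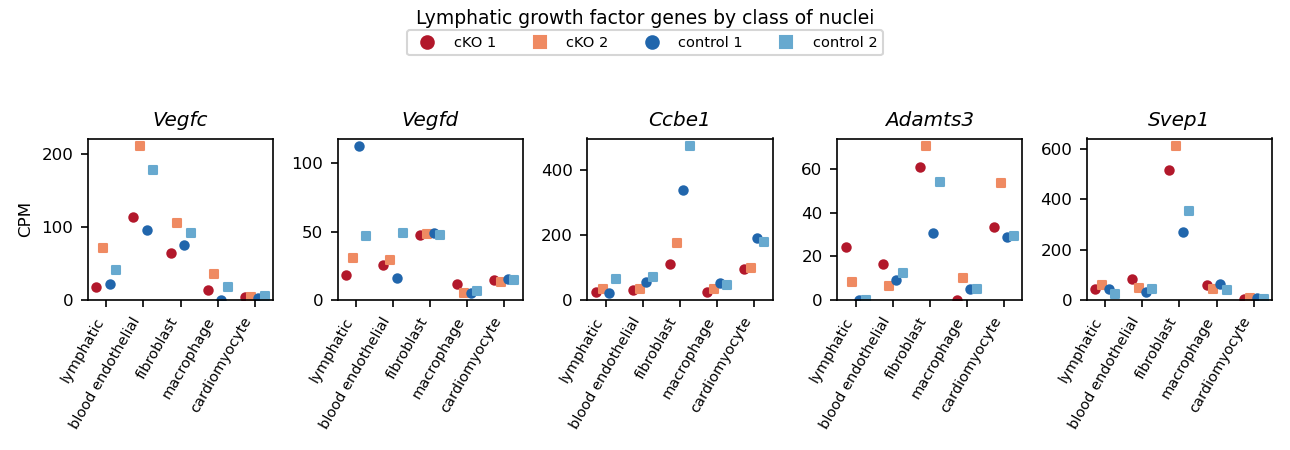
CPM of 5 genes that supply the lymphatic growth signal, in each library and in 5 classes of nuclei, with cKO libraries left of control libraries in each class; each panel has its own axis from 0. Ccbe1 is lower in both cKO libraries than in either control library in fibroblast, cardiomyocyte, blood endothelial and macrophage nuclei. It was called in fibroblast and cardiomyocyte nuclei only. Vegfc is highest in blood endothelial nuclei of both groups.

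Junction and valve genes held no called member. Of 35 junction and desmosomal genes 24 were tested, 8 did not overlap in the higher and 3 in the lower direction, beside 18.4% and 16.4% of all tested genes, and the median was 0.23. F11r, the junctional adhesion molecule A, was at 328 and 220 CPM in cKO and 67.7 and 99.6 CPM in control nuclei (1.54, SE 0.44, edgeR adjusted p = 0.595). The connexin Gja1, which belongs to the valve list too, was at 291 and 226 CPM in cKO and 135 and 123 CPM in control nuclei (1.00, edgeR adjusted p = 0.958). Efnb2, an ephrin of lymphatic valves, was at 261 and 162 CPM in cKO and 67.7 and 93.8 CPM in control nuclei (1.22, edgeR adjusted p = 0.958). The valve list had 14 of 23 members tested, with 5 not overlapping in the higher and 0 in the lower direction and as many fold changes above 0 as below it. Flow-responsive Klf2 and Klf4 were at -0.11 and 0.27. Desmoplakin (Dsp), the partner of plakophilin 2, had too few counts to test, at 91.0 and 45.7 CPM in cKO and 0 and 29.3 CPM in control nuclei.

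Most Notch genes had a fold change below 0 within the rule, without a call. Of 10 tested members of 17, 9 had a fold change below 0 and the median was -0.19, while 2 did not overlap in the lower and 0 in the higher direction. That count of lower members is near the background of 16.4%. They were the target gene Hes1, at 84.9 and 62.3 CPM in cKO and 226 and 141 CPM in control nuclei (-1.24, edgeR adjusted p = 0.958), and the DNA-binding partner Rbpj, at 103 and 72.7 CPM in cKO and 248 and 164 CPM in control (-1.18, edgeR adjusted p = 0.958). The direction of the list turned round in the second set, where the median was 0.31. The receptor Notch1 was at 273 and 251 CPM in cKO and 248 and 287 CPM in control nuclei.

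Glucocorticoid-responsive genes split, with 2 of 15 tested members not overlapping in the higher and 7 in the lower direction, beside 18.4% and 16.4% of all tested genes. Fkbp5, a classical target of the receptor, was at 279 and 388 CPM in cKO and 542 and 498 CPM in control nuclei (-0.60). Zbtb16 was at 346 and 349 CPM in cKO and 497 and 569 CPM in control nuclei (-0.64), and the receptor Nr3c1 at 267 and 280 CPM in cKO and 406 and 410 CPM in control (-0.57), with edgeR adjusted p of 0.998 for all 3. The median of the list was -0.07 and had the other sign, 0.12, in the second set.

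Genes of immune traffic and of activation were mostly sparse. Of 34 chemokine and adhesion genes 11 were tested, and the median was 0.44. Of the 11, 5 did not overlap in the higher and 0 in the lower direction, beside 18.4% and 16.4% of all tested genes. The lectin Clec2d was at 182 and 122 CPM in cKO and 67.7 and 52.7 CPM in control nuclei (1.37, edgeR adjusted p = 0.958), and the sphingosine 1-phosphate exporter Spns2 at 291 and 253 CPM in cKO and 316 and 229 CPM in control. Selp, the P-selectin of activated endothelium, came from few nuclei: all of its 122 UMIs were in 12 nuclei of cKO 2, and 100 of them in 3 nuclei. Of 30 interferon-stimulated genes 14 were tested with a median of 0.17, and of 24 NF-kB and cytokine genes 12 with a median of 0.25. The 6 tested immediate early genes of 21 had a median of 0.70, with Fosl2 at 72.8 and 85.1 CPM in cKO and 0 and 17.6 CPM in control nuclei (edgeR adjusted p = 0.776). For Jun, at 140 and 81.0 CPM in cKO and 67.7 and 35.2 CPM in control nuclei, the direction turned round in the second set (-0.039). Only 1 of 32 cell cycle genes had enough counts to test, and Mki67 had 6 and 16 UMIs in cKO and 0 and 1 in control nuclei.

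The remaining lists held no called gene either. The TGF-beta and BMP list had 22 of 35 members tested and a median of 0.26. Beside 18.4% and 16.4% of all tested genes, 7 of its members did not overlap in the higher and 1 in the lower direction. That 1 was the ligand Tgfb2, at 42.5 and 70.6 CPM in cKO and 90.3 and 182 CPM in control nuclei (-1.34, edgeR adjusted p = 0.853; 0.071 in the second set). The guidance list, 17 of 30 tested, had a median of 0.27, with Sema6a at 0.35 and Sema3d at 0.29. Lipid genes, 11 of 27 tested, had no member whose groups did not overlap, and Cd36, Lpl and Pparg were at 0.16, 0.13 and 0.10. The heat shock and unfolded protein list, 10 of 20 tested, had a median of 0.28.

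**Figure D5:**
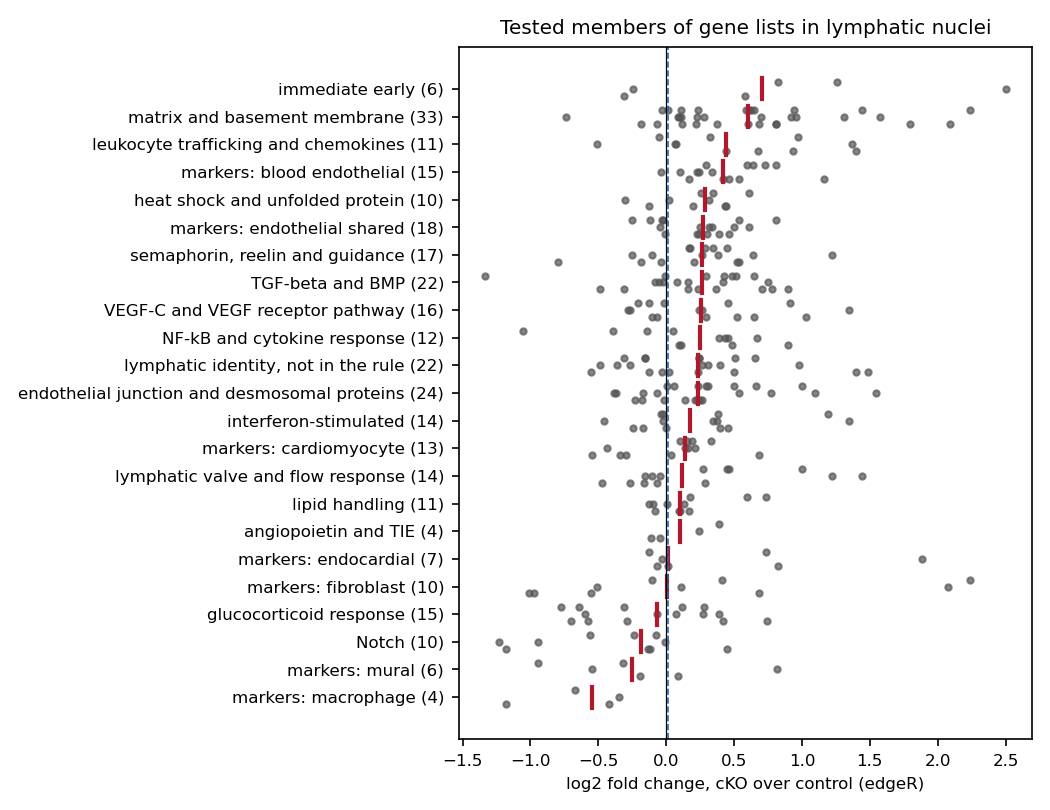
Log2 fold change, cKO over control, of each tested member of the gene and marker lists with at least 4 tested members, in lymphatic nuclei (points), with the list median (red bar), 0 (solid line) and the median of all 4203 tested genes (dashed line); the number of tested members is in brackets. Among these lists the medians of the immediate early and the matrix lists lie furthest right, and those of the Notch list and the mural and macrophage markers furthest left.

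The difference of the cKO effect between lymphatic and blood endothelial nuclei was tested for 9220 genes with the library as a block. None passed with edgeR (0%), and 428, or 4.64%, had an unadjusted p under 0.05. With a library left out, a group holds 1 library, so the calls of those fits are not given. The smallest p belonged to Dach1, whose effect was larger in lymphatic nuclei by 3.32 on the log2 scale (edgeR adjusted p = 0.169). For Etl4 the difference was -1.08 (edgeR adjusted p = 0.170): in blood endothelial nuclei Etl4 was at 1264 and 1590 CPM in cKO and 1311 and 1658 CPM in control. For Nts and Serpina3n the differences were 3.71 (SE 1.36) and 2.46 (SE 1.03), and neither passed.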

How the data were processed

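Each library came as a matrix of raw UMI counts that the authors deposited, with no normalization per the file headers. Reads were placed on mm10 according to the submitters' processing notes, while the sources used here do not name the aligner, counting program, annotation or strand setting. Of 44628 gene identifiers, 27178 matched GENCODE M21 (GRCm38), which gave coordinates. Library totals were 20992683 and 40536562 UMIs in cKO and 13491201 and 35204091 UMIs in control.

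Nuclei were gated by the rule above, comparison classes by fixed marker gates, and UMIs were summed per library and class. The 17 genes the rule counts stayed in library sizes and were not tested. The main test was edgeR 4.0.16 (quasi-likelihood, TMM, filterByExpr, Benjamini-Hochberg over all genes tested, threshold 0.05, R 4.3.3), with DESeq2 1.42.0 as an alternative; the scripts were tested on simulated data. Genes named were the 5 with the smallest p in each direction, where fewer than 5 passed, and of each list up to 4 with the highest CPM, plus list members with an unadjusted p under 0.05. Doublets were left in and the 6% highest Scrublet scores (scanpy 1.11.5) removed as an alternative. Replicate numbers were not used to pair the libraries in the main test (see the closing section). The labels do not say more of the replicates than that each is a pool of hearts. The members and gene lists were chosen with earlier results of these data known.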

Additional observations from a re-analysis of the deposited data

How the results depend on the processing

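Depth was lowest in control 1, with 27 lymphatic nuclei. The count of called genes in lymphatic nuclei, 0, became 4 with no expression filter, which moved the median of all genes to 0.34. It became 13 with the replicate block (among them Etl4, Dach1, Igfbp7, Nts, Serpina3n, Gucy1a2, ENSMUSG00000121382 and Fgl2). It was 3 with nuclei up to 20% mitochondrial UMIs and 1 with those over 5% to 20% alone. Under the 8 other settings that kept all 4 libraries it was 0. The difference of effects, 0, became 5 with no expression filter and 0 to 18 with a library left out; its library is already the block. The replicate block called 1283 genes in blood endothelial, 1793 in fibroblast, 963 in macrophage and 1694 in cardiomyocyte nuclei (1, 416, 257 and 249 without it), and leaving out a library called 46 to 150, 241 to 484, 109 to 301 and 213 to 289. The labels do not say that same-numbered libraries are paired. In lymphatic nuclei the deviations of same-numbered libraries from their group means correlated at 0.119 over 4203 genes. With 2 pairs and sparse sums of 1 class, that value cannot decide whether the numbers pair the libraries. The cause of these shifts was not tested.

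The log2 ratio of the lymphatic share lost its call with at least 1000 UMIs (1.04), at most 1% mitochondrial UMIs (2.77) and thinning (0.89), and ran from 0.79 to 1.35 with a library left out; with the replicate block it was 1.00 and held. The ratio to blood endothelial nuclei turned to -0.15 with at least 1000 UMIs, -0.15 without nuclei with 3 or more blood endothelial UMIs and -0.32 with thinning, was 0.17 with under 1% cardiomyocyte UMIs and 0.34 with up to 20% mitochondrial UMIs, and ran from 0.0072 to 0.16 with a library left out. With at most 1% mitochondrial UMIs only 1 and 7 cKO and 0 and 1 control nuclei were left, so the gene test and that ratio were not run.

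Of 680 pairs of a named gene and a setting, 644 kept direction and call, 26 passed in the alternative only and 10 reversed. Reversed were Ccdc85a at up to 20% (-0.33) and over 5% to 20% mitochondrial UMIs (-1.05), in that last set also Dach1 (-0.18), Flt1 (-0.19), Jun (-0.039) and Tgfb2 (0.071), and Pkp2 with RLE size factors (-0.0017), the replicate block (-0.085) and without high Scrublet scores (-0.18); with a library left out Pkp2 ran from -0.30 to 0.44. Alternatives on nuclei over 5% mitochondrial UMIs, on other gates, and on the other classes were chosen after seeing the data.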
